A study of Mus musculus with 40 samples.

Results

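Mme, Amy1, Ecm1, Tymp, Dnah11, Tec, and 4933404O12Rik are 7 of the 55487 genes counted in liver RNA of WT mice and of HNKO mice, in which Nampt is deleted in hepatocytes. They were chosen because they were among the most clearly lower genes in HNKO livers in these same libraries, so that the difference between the genotypes describes them and does not test them. All 7 passed the filter on low counts, along with 20290 other genes. HNKO mice carry Nampt fl/fl and Alb-Cre+/-, in which the Alb promoter drives Cre in hepatocytes, and the WT mice are littermates that carry the floxed Nampt alleles too. All mice were females on the C57BL/6JBomTac background, 9 weeks old, and received a purified control diet (PD). Whole liver was sampled after 3, 6, 12, or 21 days of this diet, and the sample labels give these days as the age of the mice. At days 3, 6, 12, and 21 there were 5, 4, 5, and 5 WT libraries and 5, 5, 6, and 3 HNKO libraries, each from 1 mouse, and another 2 HNKO libraries of day 21, numbered 17 and 18, are described as Failed QC and are treated apart.

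The 38 libraries held between 16151037 and 64181492 counts on genes (median 26466478.5). The lowest count of a gene among the 7 in any of them was 16, for Dnah11, and the highest was 10797, for Amy1. Expression is given as log2 CPM, the log2 of counts divided by TMM-scaled library size in the usual CPM unit, with a prior count of 2. Nampt, the deleted gene, had log2 fold changes of -0.93, -0.90, -0.82, and -0.69 in HNKO against WT livers at days 3, 6, 12, and 21 (SE 0.23, 0.24, 0.22, and 0.27). It passed the test at the first 3 days and did not at day 21 (adjusted p = 0.161, edgeR), and 1 HNKO library at day 6 overlapped the WT libraries. RNA of whole liver was measured, so that fewer cells of a type and less RNA per cell cannot be told apart.

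The 7 genes have no common function. Mme encodes neprilysin, a zinc peptidase of the cell surface that cleaves small peptides outside the cell. Amy1 encodes an alpha-amylase, a secreted enzyme that hydrolyses starch and glycogen, and is known to be transcribed in liver and salivary gland from separate promoters. Ecm1 encodes a secreted glycoprotein of the extracellular matrix that is known to hold TGF-beta in its latent form in liver. Tymp encodes thymidine phosphorylase, which opens the breakdown of thymidine, Dnah11 a heavy chain of the outer dynein arm of motile cilia, and Tec a cytoplasmic tyrosine kinase that gives its name to the Tec family. 4933404O12Rik is annotated as a long intergenic noncoding RNA of unknown role.

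In GRCm38, Mme (ENSMUSG00000027820.12) lies on chromosome 3 from 63241537 to 63386030 on the plus strand. Ecm1 (ENSMUSG00000028108.15) and Amy1 (ENSMUSG00000074264.12) lie on the minus strand of the same chromosome, from 95734147 to 95739569 and from 113555710 to 113606699. Tymp (ENSMUSG00000022615.7) is on chromosome 15 from 89371931 to 89377039 and Dnah11 (ENSMUSG00000018581.15) on chromosome 12 from 117877982 to 118199043, both on the minus strand. Tec (ENSMUSG00000029217.16) and 4933404O12Rik (ENSMUSG00000097908.7) are both on chromosome 5, from 72755716 to 72868483 on the minus strand and from 136919146 to 136937112 on the plus strand. The annotated transcripts of Amy1 share 33.2% of their stretches of 51 bases, the length of a read, with other genes, mostly with Rnpc3 of the same strand. For Tymp the share was 40.6%, mostly with Sco2 of the same strand, and Ncaph2 overlaps Tymp on the opposite strand. The share was under 1% for each of the other 5 genes. Reads in shared stretches may not have been counted for Amy1 and Tymp, and the sources used here do not state whether the counting used the strand.

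Amy1, Ecm1, and Tymp are the 3 genes of which each pair was correlated between libraries of the same group (described with the correlations between the genes, where 2 pairs with Dnah11 are given too), and the 250 bases before their annotated RefSeq starts are printed for that reason. The build is GRCm38.p6, all 3 genes are read on the minus strand, and the regions are chr3:113577751-113578000 for the upstream start of Amy1, chr3:113574763-113575012 for its downstream start, chr3:95739570-95739819 for Ecm1, and chr15:89377037-89377286 for Tymp. Capitals mark matches, on either strand, to any of 8 motifs. The motifs searched were the TATA box written as TATAAA, the CCAAT box, the GC box bound by Sp1 and written as GGGCGG, the E-box written as CACGTG, and the AP-1 motif written as TGANTCA. The others were the nuclear receptor site written as AGGTCA, part of the HNF1 motif written as GTTAAT, and the C/EBP motif written as TTGCNNAA.
Amy1, upstream start: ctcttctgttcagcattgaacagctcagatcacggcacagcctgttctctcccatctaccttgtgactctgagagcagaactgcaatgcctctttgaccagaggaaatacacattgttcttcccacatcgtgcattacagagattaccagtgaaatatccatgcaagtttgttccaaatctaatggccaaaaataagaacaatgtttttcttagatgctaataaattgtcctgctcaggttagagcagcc
Amy1, downstream start: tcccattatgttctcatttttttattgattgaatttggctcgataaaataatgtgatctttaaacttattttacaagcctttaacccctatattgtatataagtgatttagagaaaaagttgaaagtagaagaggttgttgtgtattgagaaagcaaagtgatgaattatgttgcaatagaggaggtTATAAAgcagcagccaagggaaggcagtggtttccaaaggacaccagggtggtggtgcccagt
Ecm1: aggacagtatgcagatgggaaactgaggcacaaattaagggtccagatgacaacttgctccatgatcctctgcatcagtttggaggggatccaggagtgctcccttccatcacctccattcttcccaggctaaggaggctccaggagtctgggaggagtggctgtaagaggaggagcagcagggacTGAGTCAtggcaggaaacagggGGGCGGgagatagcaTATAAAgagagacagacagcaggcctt
Tymp: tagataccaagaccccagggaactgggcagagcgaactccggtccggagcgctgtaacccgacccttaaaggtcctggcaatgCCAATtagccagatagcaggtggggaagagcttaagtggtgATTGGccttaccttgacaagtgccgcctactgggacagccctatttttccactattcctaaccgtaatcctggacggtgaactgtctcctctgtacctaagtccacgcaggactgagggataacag

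TATAAA was found before the downstream start of Amy1, from -63 to -58, and before Ecm1, from -27 to -22, and is present in 12.4% of 32851 RefSeq promoter windows of this length. Ecm1 also held GGGCGG from -42 to -37 and a match to the AP-1 motif from -64 to -58, which are found in 32.7% and 6.75% of the windows. Tymp held CCAAT from -167 to -163 and its complement from -126 to -122, and 33.8% of the windows hold this motif. No motif was shared by the windows of all 3 genes. None of the 8 motifs was found before Dnah11, 4933404O12Rik, or the upstream start of Amy1. These matches are letters in a window and were not tested as binding sites.

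Per kilobase of exon, the 7 genes covered a wide range of levels in WT livers. The mean over WT libraries was 62.8 CPM per kilobase for Amy1, 58.5 for Tymp, and 38.3 for Ecm1, above at least 95.2% of the tested genes. Tec, at 8.77, and Mme, at 7.08, were above 82.3% and 78.7% of the tested genes. 4933404O12Rik was at 1.44 and Dnah11 at 0.194 CPM per kilobase, and only 12.8% of the tested genes had a lower level than Dnah11. The order in HNKO livers was the same except that Tymp, at 36.8, and Amy1, at 36.6, changed places by less than their spread.

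All 7 genes were lower in HNKO than in WT livers on average at each day. A gene is called lower here where edgeR's quasi-likelihood test gave an adjusted p under 0.05 over all tested genes. By this rule 7, 6, 7, and 4 of the 7 were called lower at days 3, 6, 12, and 21, and 1.71%, 4.37%, 3.27%, and 0.916% of all tested genes. Because the genes were chosen from this contrast, nothing is read from these counts. Mme, Amy1, Ecm1, and 4933404O12Rik were called at all 4 days, Tymp and Dnah11 at days 3, 6, and 12, and Tec at days 3 and 12. In all, 15 of the 20297 tested genes (0.0739%) were called lower at all 4 days, and 117 (0.576%) at 3 or 4 days. The mean log2 fold change of the 15 over the 4 days ranged from -2.68 to -0.58, and the 4 named here lay between -0.84 and -0.74. Some of these calls depended on the analysis. Under 10 alternatives in scaling, filter, fit, or samples, the calls of Mme at day 12 and of Dnah11 at day 6 were each kept in 6, and the call of Ecm1 at day 3 in 7. Those of Amy1 at day 3, Ecm1 at day 6, and 4933404O12Rik at days 6 and 21 were each kept in 9, and the other calls in all 10. Fits with Alb or the other hepatocyte markers as a covariate are not among these 10 and are described with Alb.

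**Figure D1:**
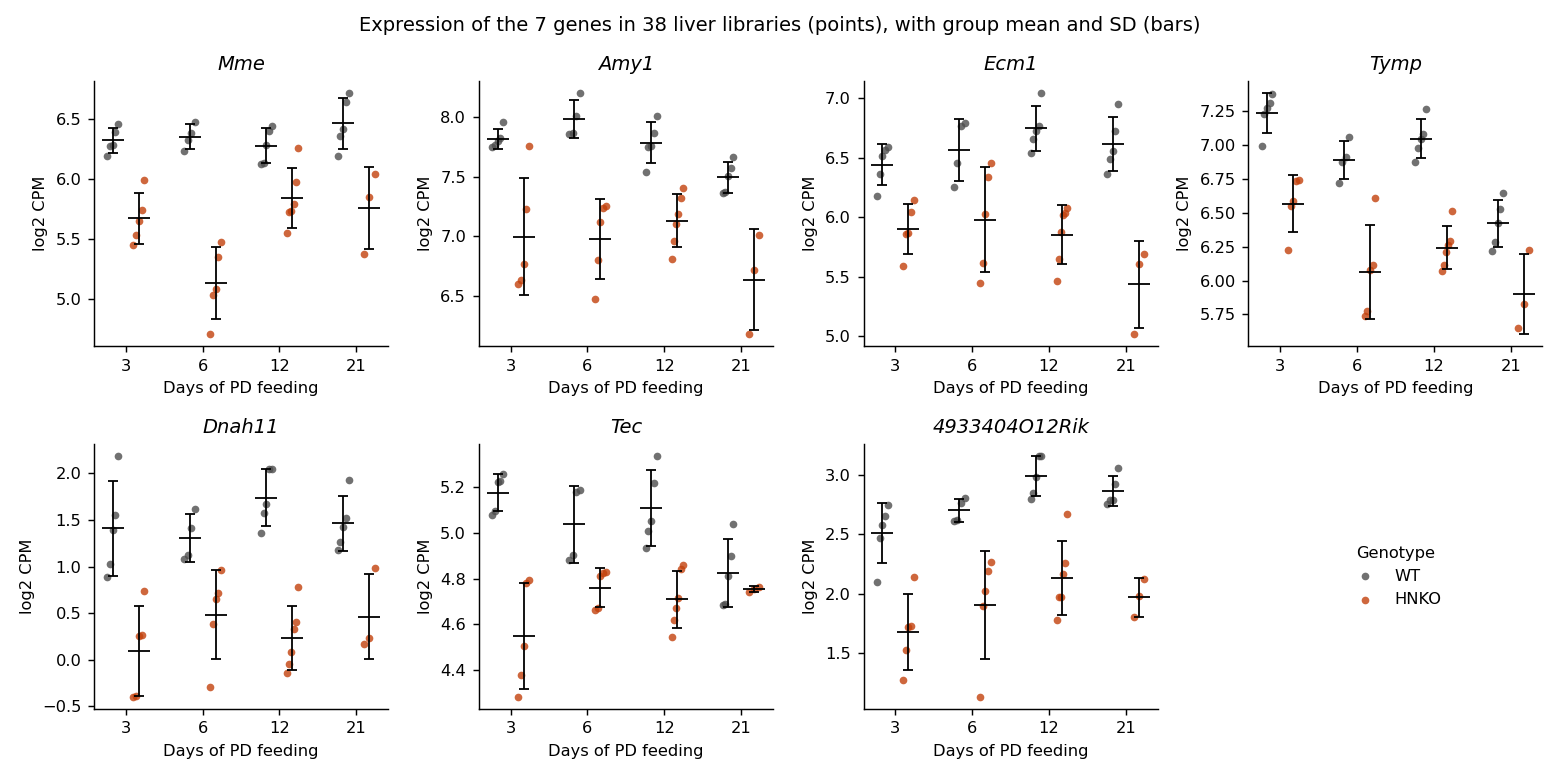
Expression of each of the 7 genes (log2 CPM, vertical axis, a separate scale per panel) by days of PD feeding in WT and HNKO livers, with 1 point per library and the group mean and SD as bars. The HNKO points lie below the WT points in most panels and days, and overlap them for Tec at day 21.

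Mme, the gene of neprilysin, had its largest difference at day 6. At day 3, Mme was at 6.19, 6.28, 6.28, 6.39, and 6.46 log2 CPM in the WT libraries and at 5.44, 5.53, 5.64, 5.74, and 5.99 in the HNKO libraries. At day 6, its levels were 6.23, 6.32, 6.38, and 6.47 in WT and 4.70, 5.03, 5.08, 5.34, and 5.48 in HNKO. The groups did not overlap at either day, and the day 6 HNKO libraries included the lowest values of Mme in the time course. At day 12, WT libraries were at 6.12, 6.13, 6.28, 6.39, and 6.43, and the 6 HNKO libraries ranged from 5.55 to 6.26 (median 5.76). At day 21, the levels were 6.19, 6.35, 6.42, 6.64, and 6.71 in WT and 5.37, 5.85, and 6.04 in HNKO. One of the 6 HNKO libraries of day 12 lay inside the WT range, and the groups were apart at day 21. The log2 fold changes were -0.64 (SE 0.13), -1.20 (SE 0.14), -0.42 (SE 0.13), and -0.70 (SE 0.16) at days 3, 6, 12, and 21, so that at day 6 HNKO livers had 43.4% of the WT level. The call at day 12 was lost when any 1 of 7 of the 11 libraries of that day (3 WT and 4 HNKO) was left out, with estimates between -0.50 and -0.37.

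Amy1, the gene of an alpha-amylase, was called lower at every day. At day 3, it was at 7.75, 7.76, 7.79, 7.82, and 7.95 log2 CPM in WT and at 6.60, 6.64, 6.77, 7.23, and 7.75 in HNKO. At day 6, WT libraries were at 7.85, 7.87, 8.0, and 8.20 and HNKO libraries at 6.48, 6.81, 7.12, 7.23, and 7.25. One HNKO library of day 3, number 4, reached the WT level, and day 6 showed no overlap. At day 12, Amy1 was at 7.54, 7.75, 7.75, 7.86, and 8.01 in WT and from 6.81 to 7.41 (median 7.14) in HNKO. At day 21, it was at 7.36, 7.37, 7.50, 7.57, and 7.67 in WT and at 6.18, 6.72, and 7.01 in HNKO, and at both days all HNKO libraries were below all WT libraries. The log2 fold changes at days 3, 6, 12, and 21 were -0.75 (SE 0.17), -0.98 (SE 0.18), -0.65 (SE 0.16), and -0.82 (SE 0.20), so that HNKO livers had between 50.7% and 64% of the WT level. The call at day 12 was lost without library 15 of WT, and the call at day 21 without library 41 of WT or 37 of HNKO, with estimates between -0.70 and -0.58 and between -1.01 and -0.61 when 1 library was left out.

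Ecm1, the matrix protein gene, had its smallest differences at days 3 and 6 and its largest at day 21. At day 3, it was at 6.18, 6.36, 6.51, 6.56, and 6.59 log2 CPM in WT and 5.59, 5.86, 5.86, 6.04, and 6.14 in HNKO. At day 6, it was at 6.25, 6.45, 6.76, and 6.79 in WT and 5.45, 5.62, 6.03, 6.34, and 6.46 in HNKO. The groups of day 3 were apart by a small gap, and at day 6 libraries 6 and 30 of HNKO lay inside the WT range. At day 12, WT libraries were at 6.54, 6.66, 6.72, 6.76, and 7.04, and HNKO libraries ranged from 5.46 to 6.08 (median 5.95). At day 21, Ecm1 was at 6.36, 6.49, 6.55, 6.73, and 6.95 in WT and 5.02, 5.60, and 5.69 in HNKO, and neither day had an overlap. In the order of the days, the log2 fold changes were -0.54 (SE 0.16), -0.55 (SE 0.17), -0.88 (SE 0.16), and -1.17 (SE 0.20). Whether they differ between days was not tested, since these contrasts chose the gene. The call at day 3 was lost when any 1 of 7 of the 10 libraries of that day was left out (estimates from -0.60 to -0.47), and the call at day 6 when library 8 or 10 of WT or 7 or 29 of HNKO was left out (estimates from -0.68 to -0.44).

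Tymp, the gene of thymidine phosphorylase, was lower in HNKO without overlap at days 3, 6, and 12. At day 3, it was at 6.99, 7.22, 7.27, 7.31, and 7.38 log2 CPM in WT and 6.22, 6.55, 6.59, 6.73, and 6.74 in HNKO. At day 21, it was at 6.22, 6.28, 6.43, 6.53, and 6.65 in WT and 5.65, 5.82, and 6.22 in HNKO. The WT libraries themselves were lower at day 21 than at day 3, and 2 of the 3 HNKO libraries of day 21 were below all WT libraries of that day. At days 6 and 12, WT libraries ranged from 6.72 to 7.26 and HNKO libraries from 5.74 to 6.61. The log2 fold changes were -0.66 (SE 0.13), -0.80 (SE 0.14), -0.80 (SE 0.12), and -0.51 (SE 0.15), and the last was not called.

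Dnah11, the gene of a ciliary dynein chain, had the largest log2 fold changes of the 7 at days 3 and 12 and the lowest counts. Its counts were between 16 and 153 in the 38 libraries. At day 3, it was at 0.89, 1.03, 1.40, 1.55, and 2.19 log2 CPM in WT and -0.40, -0.38, 0.26, 0.26, and 0.74 in HNKO. At day 6, it was at 1.08, 1.12, 1.41, and 1.61 in WT and -0.29, 0.38, 0.65, 0.72, and 0.96 in HNKO. All HNKO libraries were below all WT libraries of their day, also at days 12 and 21, where WT ranged from 1.18 to 2.05 and HNKO from -0.15 to 0.99. The log2 fold changes were -1.38 (SE 0.26), -0.83 (SE 0.28), -1.54 (SE 0.25), and -1.0 (SE 0.30), and the last was not called. The call at day 6 was lost without any 1 of 6 of the 9 libraries of that day, with estimates between -0.93 and -0.64. Cdca7l overlaps Dnah11 on the opposite strand with a median count of 24, and was not called at any day.

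Tec, the tyrosine kinase gene, was closest to WT at day 21. At day 3, it was at 5.08, 5.10, 5.22, 5.23, and 5.26 log2 CPM in WT and 4.28, 4.38, 4.51, 4.78, and 4.79 in HNKO. At day 21, it was at 4.68, 4.69, 4.81, 4.90, and 5.04 in WT and 4.74, 4.76, and 4.77 in HNKO. The groups were apart at day 3, and at day 21 the 3 HNKO libraries lay close together inside the WT range. At days 6 and 12, all HNKO libraries were below all WT libraries of their day, with WT ranging from 4.88 to 5.34 and HNKO from 4.55 to 4.86. Its log2 fold changes were -0.62 (SE 0.09), -0.29 (SE 0.10), -0.40 (SE 0.09), and -0.08 (SE 0.11), and those of days 6 and 21 were not called.

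4933404O12Rik, the noncoding RNA, differed by nearly the same amount at all days. At day 3, it was at 2.10, 2.47, 2.58, 2.66, and 2.75 log2 CPM in WT and 1.27, 1.52, 1.72, 1.73, and 2.14 in HNKO. At day 21, it was at 2.75, 2.79, 2.79, 2.92, and 3.06 in WT and 1.80, 1.98, and 2.12 in HNKO. One HNKO library of day 3, number 22, lay inside the WT range, and the groups of day 21 were apart. At days 6 and 12, WT libraries ranged from 2.62 to 3.16 and HNKO libraries from 1.13 to 2.67, and the groups of each day did not overlap. Its log2 fold changes were -0.83 (SE 0.17), -0.77 (SE 0.18), -0.84 (SE 0.16), and -0.90 (SE 0.20), between 53.4% and 58.8% of the WT level.

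Over the 7 genes and 4 days, all HNKO libraries were below all WT libraries in 22 of 28 cases. By day these were 5, 6, 6, and 5 of the 7 genes, where 1.8%, 4.68%, 2.14%, and 6.7% of all tested genes had the same lack of overlap. The median log2 fold change of the 7 was -0.66, -0.80, -0.80, and -0.82, and the median of all tested genes was at most 0.014 from 0 at each day. At day 21 the calls rested on few libraries. Without HNKO library 37, which was the lowest of the 3 for each of the 7 genes, 0 of the 7 were called by edgeR, and 1 of 20737 tested genes in all was called lower. The median log2 fold change of the 7 was then -0.61. Library numbers 1 to 21 and 22 to 41 each cover all the days, and are called the first and second series here. Within each series and day that held both genotypes, the mean of HNKO was below that of WT in 49 of 49 comparisons of the 7 genes. The genes were chosen in these same libraries, so that this count describes them and is no test. No HNKO library of the first series was used at day 21.

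**Figure D2:**
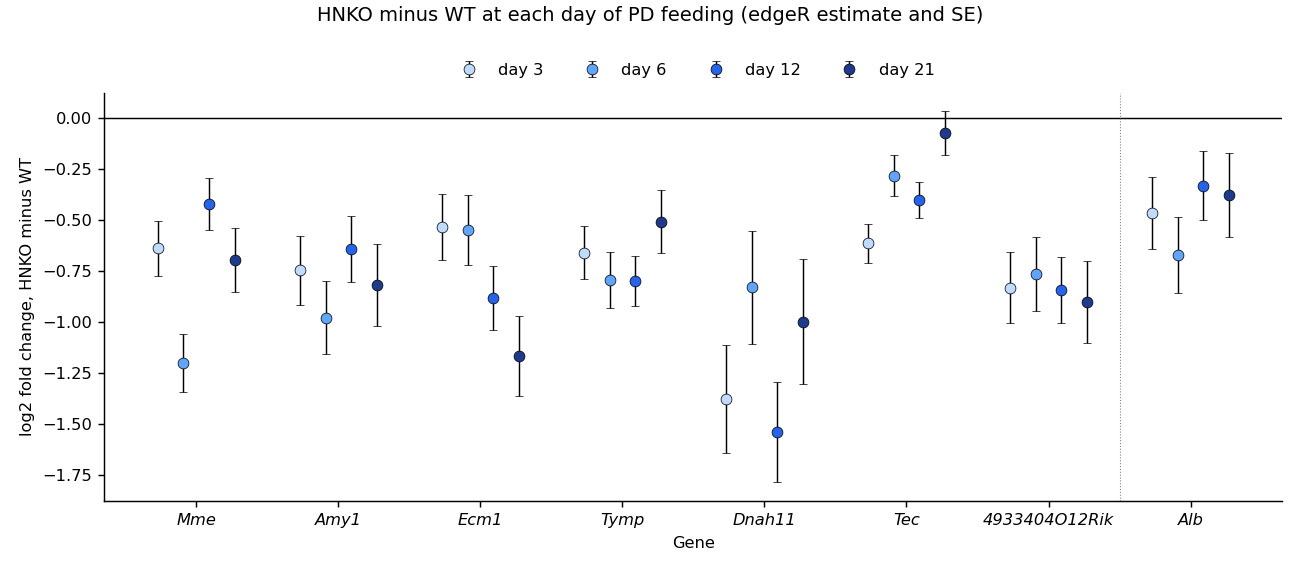
Log2 fold change of HNKO against WT at each day of PD feeding for the 7 genes and Alb, with points for the edgeR estimate and bars for 1 SE. Ecm1 goes from -0.54 at day 3 to -1.17 at day 21, Mme is lowest at day 6 at -1.20, and Tec is at -0.08 at day 21.

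The days of PD feeding were compared within each genotype. These comparisons share group means with the genotype contrasts that chose the genes. Their p-values are thus not independent of that choice, which can favour falls from high WT or to low HNKO levels. In WT livers, Tymp and Tec fell from day 3 to day 21. Tymp fell by 0.81 on the log2 scale (SE 0.13, adjusted p = 0.000236, edgeR), and Tec fell by 0.35 (SE 0.09, adjusted p = 0.0232, edgeR). For Tymp, Tec, and Amy1, 3 of the 7, all 5 WT libraries of day 21 were below all 5 of day 3, as in 3.2% of all tested genes. For 4933404O12Rik all were above, as in 3.99% of all tested genes, and 1.67% of all tested genes were called lower in this comparison. The call of Tec was lost when library 5, 24, or 25 of WT at day 3 or 19 or 39 of WT at day 21 was left out, and the call of Tymp was kept without any 1 library. The other 5 genes were not called, among them Amy1, whose log2 fold change was -0.32 with an SE of 0.17 and adjusted p = 0.287 by edgeR, and 4933404O12Rik, whose values were 0.34, 0.17, and 0.252. Markers of other cells moved in the same comparison. Of 9 tested lymphocyte and neutrophil markers, 3 were called lower, with a median log2 fold change of -0.54 over the list, and no marker of the other lists was called, with medians of -0.45 for cholangiocyte and progenitor, -0.44 for macrophage, -0.29 for hepatocyte, -0.23 for stellate and fibroblast, and -0.17 for endothelial markers. The part of these cells in the lower levels of Tymp and Tec was not tested. None of the 7 was called between days 3 and 12 in WT (1 at an unadjusted p under 0.05), where edgeR called 3.21% of tested genes. In that comparison 5 of 7 macrophage markers (median -0.61) and 2 of 9 lymphocyte and neutrophil markers (median -0.93) were called lower and no other marker was called, and 4933404O12Rik was at 0.47 on the log2 scale with adjusted p = 0.131 by edgeR. Between days 3 and 6 in WT edgeR called 0 genes, or 0% of all tested (1063 at an unadjusted p under 0.05, 1 of them among the 7), and DESeq2 called 5.

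In HNKO livers, Tymp and Mme were called between days. Tymp fell by 0.66 on the log2 scale from day 3 to day 21 (SE 0.15, adjusted p = 0.0178, edgeR), with 2 of 3 libraries of day 21 below all 5 of day 3, in a comparison where 1.25% of tested genes were called lower. The call was lost when HNKO library 4, 37, or 40 was left out. Mme fell by 0.53 from day 3 to day 6 (SE 0.13, adjusted p = 0.0479, edgeR), with 4 of 5 libraries below all of day 3, where 0.168% of tested genes were called lower. In the comparison of days 3 and 21 no cell type marker was called, and in that of days 3 and 6 only 1 of the lymphocyte and neutrophil markers was, which was higher. The call of Mme stood at the threshold and was kept in 9 of the 38 fits that left out 1 library. None of the 7 was called between days 3 and 12 in HNKO (2 at an unadjusted p under 0.05), where edgeR called 2.42% of tested genes.

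The libraries of HNKO livers differed among themselves more than those of WT livers for most of the 7 genes. The SD within groups of the same genotype and day was 0.37 log2 CPM in HNKO and 0.14 in WT for Amy1, a ratio of 2.63. The ratio was 1.96 for 4933404O12Rik, 1.79 for Mme, 1.65 for Tymp, and 1.52 for Ecm1, and it was 1.21 for Dnah11 and 1.02 for Tec. Thus 5 of the 7 had a ratio over 1.5, as did 12.3% of all tested genes, whose median ratio was 0.998. A ratio as large as that of Amy1 was found in 0.7% of tested genes, and one as large as that of 4933404O12Rik in 3.51%. These ratios are descriptions, and no test was made of them.

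**Figure D3:**
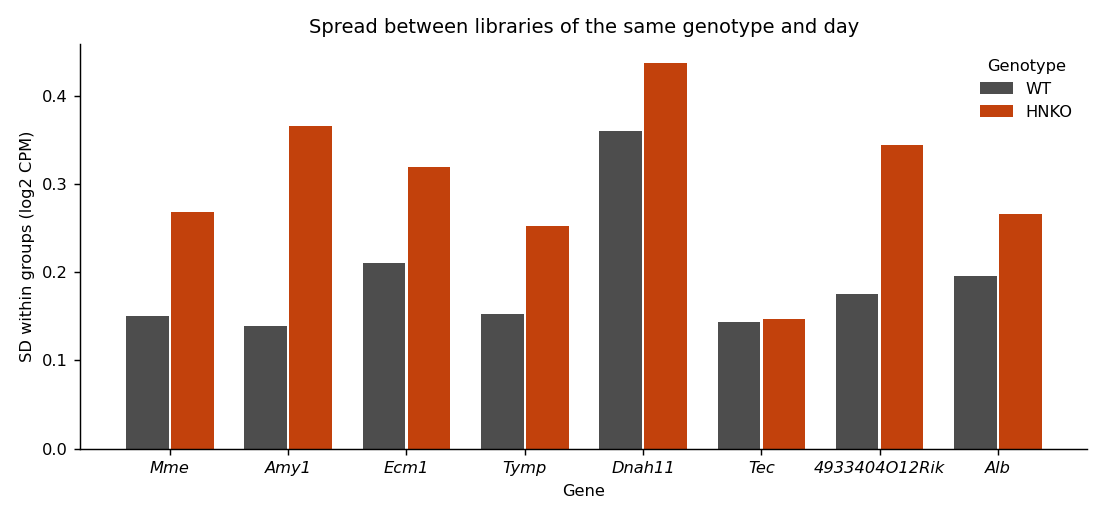
SD between libraries within groups of the same genotype and day (log2 CPM, vertical axis) for the 7 genes and Alb in WT and HNKO livers. The HNKO bar is taller for 5 of the 7 genes by over 1.5 times, most for Amy1 at 0.37 against 0.14, and the bars of Tec are nearly equal.

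Alb, the gene of albumin and the source of the promoter that drives Cre, is the standard marker of hepatocytes. Its log2 fold changes in HNKO against WT livers were -0.47, -0.67, -0.33, and -0.38 (SE 0.18, 0.18, 0.17, and 0.20), and it was called lower at day 6 only. Each gene was compared with Alb over the deviations of the 38 libraries from the means of their groups, so that the difference between genotypes does not enter. Tymp (r = 0.63, rho = 0.54) and Amy1 (r = 0.60, rho = 0.50) were higher in libraries with more Alb, with adjusted p = 0.00539 and 0.00704 by a permutation test within groups over the 7 relations (raw p = 0.00077 and 0.00201; by rank, adjusted p = 0.021 and 0.0322). The other genes did not pass, with r = 0.39 for Ecm1, 0.27 for Dnah11, 0.27 for 4933404O12Rik, 0.21 for Mme, and 0.04 for Tec. Over all other tested genes the median r was -0.03, and 2.49% had r over 0.5.

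The relation of Tymp to Alb held without the 2 libraries farthest in Alb, HNKO 29 of day 6 and WT 21 of day 21 (r = 0.57, permutation adjusted p = 0.0164). That of Amy1 did not pass without them (permutation adjusted p = 0.0894), where r was 0.53, against 0.60 with them. Amy1 had r = 0.45 in WT and 0.67 in HNKO livers, and 0.73 and 0.65 within the first and second series. Tymp had r = 0.52 in WT and 0.69 in HNKO, and 0.62 and 0.73 within the series. Tymp passed in HNKO (permutation adjusted p = 0.0371) and did not pass in WT (permutation adjusted p = 0.192) or in the first or second series alone (permutation adjusted p = 0.069 and 0.102). Amy1 passed in HNKO (permutation adjusted p = 0.0371) and in the first series (permutation adjusted p = 0.0465), and did not pass in WT (permutation adjusted p = 0.209) or in the second series (permutation adjusted p = 0.239). By rank, neither gene passed in any of these 4 subsets, with permutation adjusted p = 0.114 for Tymp and 0.179 for Amy1 in HNKO, and 0.0692 and 0.0551 in the first series. Within the first series Dnah11 was also related to Alb (r = 0.67, permutation adjusted p = 0.0465, by rank 0.0692), and within the second it was not (r = 0.17, permutation adjusted p = 0.781). Against the mean of the other 17 hepatocyte markers in place of Alb, 4 genes passed: Amy1 (r = 0.75), 4933404O12Rik (r = 0.67), Tymp (r = 0.63), and Ecm1 (r = 0.56). Dnah11 was close to the threshold and did not pass (r = 0.43, permutation adjusted p = 0.0506). Mme (r = -0.08) and Tec (r = -0.14) showed no relation that passed the test against either measure.

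**Figure D4:**
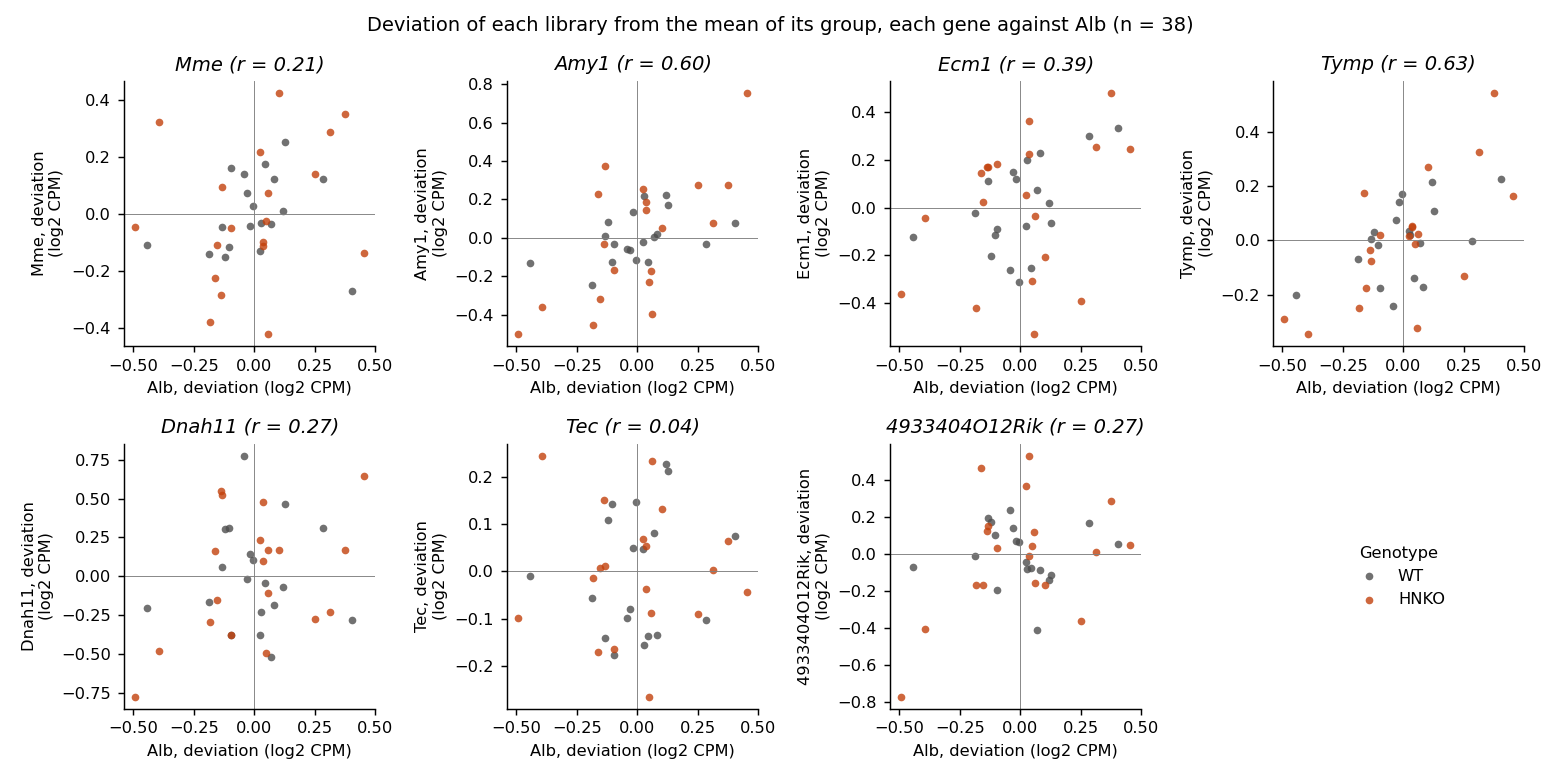
Deviation of each gene (vertical axis) against the deviation of Alb (horizontal axis), both in log2 CPM from the mean of the library's group, with 1 point per library for 38 WT and HNKO libraries. Points of Amy1 (r = 0.60) and Tymp (r = 0.63) rise with Alb, and those of Tec (r = 0.04) do not.

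With Alb as a covariate in the fit, all 28 log2 fold changes of the 7 genes stayed below 0. At day 6 the estimate went from -0.98 to -0.50 (SE 0.19) for Amy1, from -0.80 to -0.41 (SE 0.14) for Tymp, and from -0.55 to -0.24 (SE 0.20) for Ecm1. It went from -0.83 to -0.54 for Dnah11, from -0.77 to -0.59 for 4933404O12Rik, from -1.20 to -1.06 (SE 0.18) for Mme, and from -0.29 to -0.27 (SE 0.13) for Tec. With the mean of the other hepatocyte markers as the covariate, the day 6 estimates were -0.75 for Amy1, -0.66 for Tymp, -0.38 for Ecm1, -0.66 for Dnah11, -0.59 for 4933404O12Rik, -1.22 for Mme, and -0.31 for Tec, and all 28 were again below 0. Under this covariate 4933404O12Rik moved more than Tymp at each day, and at least as much as Ecm1. With Alb in the fit, 3, 4, 82, and 10 of all tested genes were called lower at the 4 days, where 347, 887, 663, and 186 were called without it. At most 3 and 4 of the 7 can thus have been called at days 3 and 6, where 7 and 6 were called without Alb. Alb and the other markers differ between the genotypes, and their part in the lower levels of the 7 genes was not tested beyond these fits.

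Markers of several cell types moved with genotype. Over all tested genes, 2.95%, 8.42%, 4.56%, and 2.21% were called higher in HNKO at days 3, 6, 12, and 21. Of 18 hepatocyte markers, 1, 3, 0, and 0 were called lower and 0, 2, 0, and 0 higher at days 3, 6, 12, and 21, and their median log2 fold change was -0.21, -0.35, -0.14, and -0.23. Their mean level ranged from 11.5 to 12.1 log2 CPM over the WT libraries and from 11.2 to 12.0 over the HNKO libraries. Of 7 cholangiocyte and progenitor markers, 5, 5, 4, and 3 were called higher in HNKO, and their mean level was 0.82 to 1.68 log2 CPM in WT and 2.09 to 3.57 in HNKO libraries, with no overlap. Of 8 stellate and fibroblast markers, 4, 5, 3, and 4 were called higher, with means of 4.17 to 5.03 in WT and 4.20 to 6.5 in HNKO libraries. Of 7 macrophage markers 0, 3, 1, and 1, and of 9 tested lymphocyte and neutrophil markers 0, 3, 2, and 0, were called higher, and 1 of the latter was called lower at day 3. Of 7 endothelial markers 0, 1, 1, and 0 were called lower, with means of 5.83 to 6.29 in WT and 5.89 to 6.28 in HNKO libraries. Of the tested markers, Cftr was at 0 counts in 1 library and no other was at 0 in any of the 38, and the part of these cell types in the lower levels of the 7 genes was not tested.

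Between each other, the 7 genes were correlated over the same deviations in 5 of 21 pairs, all positively. These were Dnah11 with 4933404O12Rik (r = 0.59, permutation adjusted p = 0.0305), Ecm1 with Tymp (r = 0.56, permutation adjusted p = 0.0345), Amy1 with Tymp (r = 0.55, permutation adjusted p = 0.0345), Amy1 with Dnah11 (r = 0.52, permutation adjusted p = 0.0345), and Amy1 with Ecm1 (r = 0.50, permutation adjusted p = 0.0393). Of the 5 pairs, 4 also passed by rank, the exception being Amy1 with Dnah11 (rho = 0.44, permutation adjusted p = 0.0826). All 5 were positive within WT, within HNKO, and within each series, but in WT alone r was 0.03 for Amy1 with Dnah11, 0.30 for Ecm1 with Tymp, and 0.39 for Amy1 with Ecm1, against 0.71, 0.67, and 0.54 in HNKO livers. Dnah11 with 4933404O12Rik had r = 0.24 in the first series and 0.72 in the second. Without the 2 libraries farthest in the first gene of a pair, r was between 0.35 and 0.52 in the 5 pairs. Tec and Mme were in none of the pairs that passed, and the pair of them had r = 0.16.

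**Figure D5:**
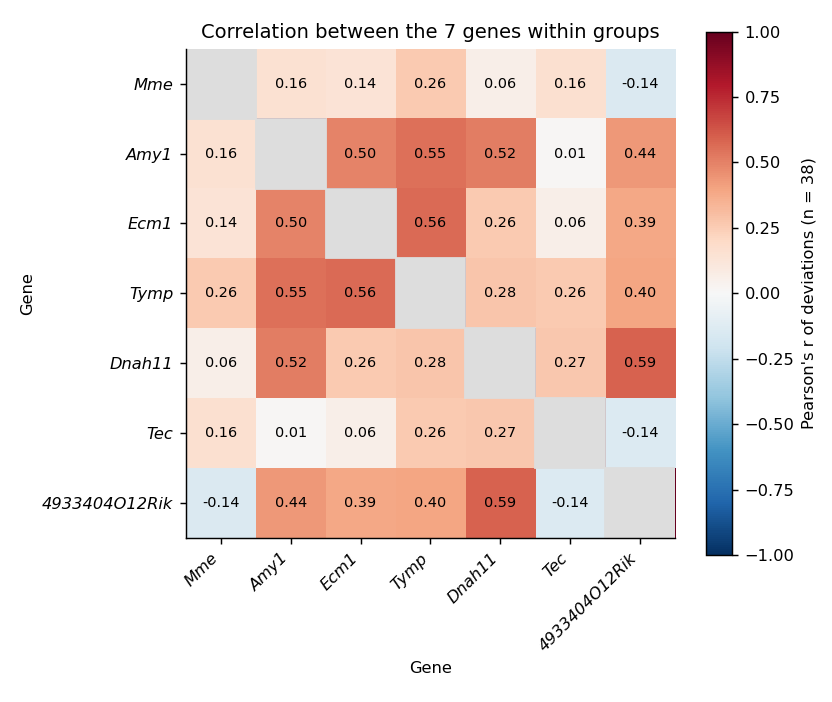
Pearson's r between the deviations of each pair of the 7 genes over 38 libraries, on a colour scale from -1 to 1, with r printed in each square and the diagonal left grey. Amy1, Ecm1, and Tymp form a block of r from 0.50 to 0.56, Dnah11 and 4933404O12Rik are at 0.59, and Mme and Tec have low values with most others.

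For each gene, the 2 genes whose deviations were most alike over the 38 libraries, were found by Pearson's r among tested genes whose mean was 1 log2 CPM or more. For Amy1 they were Apoh (r = 0.92), which encodes a plasma glycoprotein made by hepatocytes, and Pex7 (r = 0.91), which encodes a receptor for import into peroxisomes. Ecm1 was closest to 5730414N17Rik and Cyp2c39 (r = 0.79 for both), the latter a cytochrome P450 gene. Tymp was closest to Bmp10 (r = 0.82), a BMP ligand, and Klhl3 (r = 0.75). 4933404O12Rik was closest to Ftcd and Abhd14b (r = 0.76 for both), and Ftcd encodes an enzyme of histidine breakdown. Dnah11 was closest to Kank1 (r = 0.71) and Mup2 (r = 0.67), a major urinary protein gene. Tec was closest to Ccdc141 (r = 0.70) and Ocln (r = 0.67), the gene of occludin, and Mme to Stard4 (r = 0.59), which encodes a cholesterol transfer protein, and Alg11 (r = 0.58). These are the highest values among many genes over libraries that share depth and group, and no p is given for them.

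Of the 14 genes named, Cyp2c39 was called lower in HNKO at 3 days, with log2 fold changes of -0.75, -1.10, -0.83, and -0.72 in the order of the days. Bmp10 was called at 2 days (-0.43, -0.79, -0.96, and -0.31). Apoh, Pex7, 5730414N17Rik, Klhl3, Kank1, Mup2, and Abhd14b were each called at 1 day, and Stard4, Alg11, Ccdc141, Ocln, and Ftcd at none. Apoh, the gene most like Amy1, was at -0.43, -0.49, -0.34, and -0.32, smaller differences at each day than those of Amy1. Mup2, at -1.41, -1.38, -1.97, and -1.45, had larger differences than Dnah11 at each day but was called at 1 of them.

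Other genes of the same families were in large part not called, as with most tested genes, or were higher in HNKO. Over all tested genes, 1.71%, 4.37%, 3.27%, and 0.916% were called lower at days 3, 6, 12, and 21. Called higher were 2.95%, 8.42%, 4.56%, and 2.21%, and these shares stand beside every family list below. Of 11 tested genes of membrane peptidases and related enzymes, including Mme and the soluble oligopeptidases Thop1 and Nln, 1, 2, 2, and 1 were called lower and 1 at each day higher. The higher one was Ace, the gene of angiotensin-converting enzyme, at log2 fold changes of 1.37, 1.41, 1.03, and 1.21 (SE 0.31, 0.33, 0.29, and 0.34). Of 14 genes of amylase and glycogen metabolism, 2 were called lower at each day, Amy1 among them, and 1, 2, 3, and 1 higher. Pygb, the brain form of glycogen phosphorylase, was called higher at days 6, 12, and 21, at 0.92, 0.80, and 0.88 (SE 0.23, 0.21, and 0.24). The median log2 fold change was -0.12, -0.23, -0.13, and -0.17 in the peptidases and -0.07, -0.24, -0.12, and -0.15 in the amylase and glycogen list, beside 0.01, -0.01, 0.00, and -0.01 over all tested genes.

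Ecm1 was the only gene called lower of 14 genes that hold, bind, or release latent TGF-beta. In this list 3, 10, 3, and 3 genes were called higher, and its median log2 fold change was 0.57, 1.06, 0.51, and 0.93. Thbs1, the gene of thrombospondin-1, which activates latent TGF-beta, was higher by 1.52, 2.98, 1.25, and 1.91 on the log2 scale (SE 0.38, 0.44, 0.37, and 0.42). Itgb8, a subunit of an integrin with the same known role, was higher by 1.16, 1.47, 0.80, and 1.30 (SE 0.26, 0.29, 0.24, and 0.28). Tgfb2, a ligand, was called higher at days 3, 6, and 21, at 1.71, 1.88, and 1.94 (SE 0.38, 0.42, and 0.42), and was at 1.11 (SE 0.36) at day 12. The direction of Ecm1 was thus opposite to that of the called genes of its list at all 4 days.

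Dnah11 was likewise the only dynein heavy chain called lower, at days 3, 6, and 12, of 12 tested. Dnah1 and Dnah5 were called higher at all 4 days, with log2 fold changes of 1.86, 2.32, 2.31, and 1.62 for Dnah1 (SE 0.34 to 0.38) and of 1.11, 1.19, 1.45, and 2.17 for Dnah5 (SE 0.33 to 0.40). Of 7 tested genes of motile cilia, only Foxj1, which encodes the transcription factor of their assembly, was called, and it was higher by 2.57, 2.01, 1.88, and 2.24 (SE 0.42, 0.46, 0.40, and 0.47). Dnah11 thus moved opposite to the other called genes of cilia. Of 20 genes of pyrimidine breakdown and salvage, 2, 5, 2, and 0 were called lower, Tymp among them at the first 3 days, and 0, 2, 0, and 0 higher. Of 13 kinases of the Tec and Src families, 1, 0, 1, and 0 were called lower, each time Tec itself, and 1, 5, 1, and 0 higher. The median log2 fold change was -0.15, -0.20, -0.08, and -0.04 in the pyrimidine list and 0.02, 0.35, 0.36, and 0.22 in the kinase list.

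Most genes beside the 7 on the chromosomes were not called, as with most tested genes. Over all tested genes, at most 4.37% were called lower and 8.42% higher at any day. Among the nearest tested genes on either side and the tested genes that overlap them, Slain2, next to Tec, was called lower at 1 day, and no other was called lower at any day. Ift22, beside 4933404O12Rik, was called higher at 2 days and Plch1, beside Mme, at 1 day. Odf3b, 410 bases from Tymp on the same strand, had log2 fold changes of -0.34, -0.55, -0.68, and -0.25 that were not called, beside -0.66, -0.80, -0.80, and -0.51 for Tymp. Rnpc3, which shares sequence with Amy1, was at -0.21, -0.26, -0.19, and -0.25 and was not called. Ncaph2, which overlaps Tymp on the opposite strand, was at 0.01, -0.03, -0.01, and 0.11. Txk, a Tec family kinase gene 2939 bases from Tec, was at -0.26, 0.09, -0.31, and -0.07 and was not called.

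The 2 HNKO libraries of day 21 described as Failed QC were compared with the 5 WT libraries of that day on a scale of all 40 libraries. For Amy1, libraries 17 and 18 were at 7.09 and 7.24 log2 CPM, below the WT range of 7.37 to 7.67. For Ecm1, they were at 5.74 and 6.02, below the WT range of 6.39 to 6.96. Dnah11 had 1 and 15 counts in them, at -2.73 and -0.15, below the WT range of 1.19 to 1.93. In these 3 genes both libraries were below all WT libraries, and the exact permutation test, two-sided, gave p = 0.0952 for each, the smallest that 2 against 5 libraries allow. The Failed QC libraries did not enter the choice of the genes, but the 5 WT libraries did, so that the comparison is not independent of it.

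For the other genes the pair of libraries disagreed. Library 18 was below all WT libraries for Mme (5.98, WT from 6.20), Tymp (5.87, WT from 6.22), Tec (4.57, WT from 4.68), and 4933404O12Rik (1.85, WT from 2.75). Library 17 was not below WT for any of these 4, and was above the WT range for Tec, at 5.36 against 5.04, and for 4933404O12Rik, at 3.13 against 3.06. With these libraries in the fit, the log2 fold change at day 21 went from -0.90 to -0.62 for 4933404O12Rik, from -0.82 to -0.60 for Amy1, from -1.17 to -0.98 for Ecm1, from -0.70 to -0.54 for Mme, and from -0.51 to -0.42 for Tymp. It went from -0.08 to 0.03 for Tec, and from -1.0 to -1.39 for Dnah11. These libraries held 12287423 and 15935527 counts, fewer than any of the other 38. In the paper's methods, the left-out time course samples had skewed GC content, much sequence duplication, and lower alignment rates, and clustered apart. The part of these defects in the levels of single genes was not tested.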

How the data were processed

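Counts per gene of liver RNA-Seq libraries were analysed. Per the labels and the paper's methods, the authors depleted rRNA, aligned 51-bp paired-end reads to GRCm38 with STAR 2.7.2b, and deposited raw counts from featureCounts 1.6.4 on GENCODE genes. These were fitted with edgeR 4.0.16 (legacy dispersion) after its filter on low counts (minimum count 10, total 15, proportion 0.7) and TMM scaling, with 1 mean for each of 8 groups over 38 libraries, with Benjamini-Hochberg adjustment across 20297 genes. Each library is from 1 mouse, and the 74 pairs within groups differed by more than sampling noise. Correlations used deviations from group means and 100000 permutations within groups (two-sided). Positions are from GENCODE M21 on GRCm38 and promoters from RefSeq. The steps were tested on simulated data. Alternatives were RLE and upper quartile scaling, DESeq2 1.42.0, other filters, dispersions, covariates, and samples, and leaving out each library.

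Besides the 7 genes, those named are Nampt, Alb, the 2 genes most alike to each, genes of the family lists called at 3 or 4 days, neighbouring or overlapping genes, and Thop1, Nln, and Cftr, which were chosen after their values were seen. The 7 genes and all lists were chosen with earlier results of these data known.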

Additional observations from a re-analysis of the deposited data

How the results depend on the processing

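For each gene and day called in HNKO against WT, the direction of the log2 fold change was kept under every alternative run, while that of Tec at day 21, which was not called, turned to 0.03 with all 40 libraries. The number of the 7 genes called lower was 3 instead of 6 at day 6 when only the groups of that day were fitted, and their median log2 fold change at day 6 was -0.50 with Alb as a covariate. Calls of the 7 were not counted in the fits with Alb or the other hepatocyte markers as a covariate. Without 1 library, 6 to 7, 4 to 7, 5 to 7, and 0 to 6 of the 7 were called lower at days 3, 6, 12, and 21, and the medians lay from -0.72 to -0.65, from -0.87 to -0.64, from -0.84 to -0.74, and from -0.97 to -0.61. The genes called between days 3 and 21 in WT went from 2 to 1 with no filter beyond 1 count and with all 40 libraries, and were 1 to 2 without 1 library. In HNKO, the 1 gene called between days 3 and 6 became 2 with DESeq2 and 0 with no filter beyond 1 count or with all 40 libraries, and 0 to 2 without 1 library. Between days 3 and 12 and days 3 and 21 in HNKO, 0 to 1 were called without 1 library. The genes correlated with Alb were 2 in the main analysis, 1 without the 2 libraries farthest in Alb, 0 in WT alone and within the second series, and 4 against the other hepatocyte markers. Both Failed QC libraries were below all WT libraries for 3 to 4 genes when 1 WT library was left out. Over all genes, the number called lower at days 3, 6, 12, and 21 was at most 614, 1152, 924, and 444 under an alternative. Leaving out 1 library gave at the fewest 91, 217, 278, and 1, without HNKO 3, HNKO 29, WT 15, and HNKO 37. The cause of these changes was not tested. No paired analysis was made. The WT mice are littermates, but the labels record no litter or other pairing of the mice. Depth limits Dnah11 most, with 16 to 153 counts per library.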
